A study of Mus musculus with 7 samples.

Results

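Chromatin regions that were called open in resting Raw264.7 cells and in no cell population given RANKL, whether or not the BET inhibitor I-BET was added, were described from 7 ATAC-seq libraries. Overlapping or book-ended peaks of all libraries were merged into 344401 regions. A region belonged to the set when at least 1 bp of a peak lay in it in both Untreated libraries and in none of the 2 RANKL and 2 RANKL+Ibet libraries, while the Ibet only library could be either way. The set held 883 of the 344401 regions (0.256%). The regions were thus chosen by the peak calls of these 6 libraries, and their calls in Untreated cells and lack of calls with RANKL are a description with no test. A missing call says that the peak caller's threshold was not reached, not that the DNA was closed.

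Raw264.7 is an established mouse monocyte-derived line, a macrophage-like model whose source the labels give as bone marrow. The groups were RANKL (50 ng/ml, 4 h, 2 libraries), RANKL+Ibet (RANKL at 50 ng/ml with I-BET at 500 nM, 4 h, 2 libraries), Ibet only (500 nM without RANKL, 4 h, 1 library, labelled replicate 2) and Untreated (2 libraries). Every group is the same line, and nothing in the labels ties the replicates to separate cultures, so the spread between them may be technical. With 2 libraries against 2, an exact two-sided permutation test could not give a p below 0.333, and no p is given for any value here.

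ATAC-seq maps accessible DNA by letting a transposase insert sequencing adapters wherever nucleosomes and other proteins leave room. RANKL, a cytokine of the TNF family, binds its receptor RANK on macrophage precursors and starts osteoclast development through NF-kB, AP-1 and Nfatc1. Regulatory DNA of the precursor state can lose accessibility as the osteoclast programme begins. BET proteins such as Brd2 read acetylated histones and recruit the elongation machinery, and I-BET occupies their bromodomains.

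The lists held 117175 to 166369 peaks per library. The lists carry no read depth. In each of them the deposited folds were whole multiples of 1 step, which gives the background pileup and, in whole numbers, the summit pileup (how many sequenced tags overlap at the top of a peak). The background was 4.12 and 2.04 in the RANKL libraries, 3.92 and 13.8 in the RANKL+Ibet libraries, 1.11 in Ibet only and 2.55 and 1.81 in the Untreated libraries, replicate 1 first. Regions that only 1 library called made up 10.8% to 27.1% of those of the RANKL, RANKL+Ibet and Ibet only libraries, 42.9% of those of Untreated replicate 1 and 8.95% of those of Untreated replicate 2. Of 10 macrophage markers, 9 had a region called in all 7 libraries within 1 kb of a gene end, among them Spi1, Csf1r and Cd68, against 5 of 12 markers of B and T lymphocytes, 1 of 7 of fibroblasts or osteoblasts and 1 of 6 of granulocytes or erythroid cells. None of the 883 regions lay nearest to any of these markers.

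Few of the regions reached a gene's start. Of the 870 regions on chromosomes covered by the RefSeq promoter table (GRCm38.p6, which has mm10 coordinates), 10 overlapped a window from 250 bases before to 50 bases after a start, and these touched 11 windows. The windows of 4 of these genes are shown because there the Untreated-only call reaches into a start window; they are the 4 with an assigned gene name among the 6 highest in the Untreated lists. Capitals mark the bases inside the region and lower case the bases outside it, 5′ to 3′ on the gene's own strand. Capn13 encodes a calpain protease (minus strand, chr17:73399247-73399546), Cistr a long non-coding RNA (minus strand, chr15:102746860-102747159), Smim41 a small membrane protein (plus strand, chr15:101292975-101293274) and Draxin a secreted axon guidance factor (minus strand, chr4:148130649-148130948).
Capn13: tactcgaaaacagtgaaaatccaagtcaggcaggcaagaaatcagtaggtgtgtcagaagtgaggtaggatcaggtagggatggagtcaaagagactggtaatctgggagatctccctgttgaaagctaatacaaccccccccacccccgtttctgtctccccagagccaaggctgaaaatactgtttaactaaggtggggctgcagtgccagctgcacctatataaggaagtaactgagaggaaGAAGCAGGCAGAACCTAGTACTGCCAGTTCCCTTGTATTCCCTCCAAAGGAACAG
Cistr: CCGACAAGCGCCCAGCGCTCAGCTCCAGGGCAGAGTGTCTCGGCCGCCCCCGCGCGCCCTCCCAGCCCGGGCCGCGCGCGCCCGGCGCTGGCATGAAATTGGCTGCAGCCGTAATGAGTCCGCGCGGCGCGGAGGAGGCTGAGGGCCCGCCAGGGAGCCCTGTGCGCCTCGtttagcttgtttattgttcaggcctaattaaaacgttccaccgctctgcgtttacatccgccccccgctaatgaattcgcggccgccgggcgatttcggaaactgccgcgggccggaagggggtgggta
Smim41: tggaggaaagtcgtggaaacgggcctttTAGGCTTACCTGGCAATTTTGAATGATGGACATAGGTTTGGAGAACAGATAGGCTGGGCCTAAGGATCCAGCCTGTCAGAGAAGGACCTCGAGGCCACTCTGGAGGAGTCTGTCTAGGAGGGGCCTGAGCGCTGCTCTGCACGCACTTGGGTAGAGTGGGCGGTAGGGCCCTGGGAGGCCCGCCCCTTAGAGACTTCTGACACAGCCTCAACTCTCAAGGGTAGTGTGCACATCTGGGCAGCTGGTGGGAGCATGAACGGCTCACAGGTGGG
Draxin: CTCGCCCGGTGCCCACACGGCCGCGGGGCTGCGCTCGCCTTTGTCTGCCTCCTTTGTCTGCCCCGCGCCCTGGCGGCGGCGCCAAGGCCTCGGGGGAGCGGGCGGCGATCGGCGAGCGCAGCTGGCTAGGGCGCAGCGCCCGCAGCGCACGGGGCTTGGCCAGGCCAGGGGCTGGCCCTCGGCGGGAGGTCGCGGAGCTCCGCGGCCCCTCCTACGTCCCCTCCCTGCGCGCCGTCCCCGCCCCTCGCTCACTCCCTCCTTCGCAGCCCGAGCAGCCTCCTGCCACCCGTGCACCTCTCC

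The region at Capn13 (chr17:73399043-73399301) covered 55 of the 300 bases of its window, and that at Draxin (chr4:148130417-148131160) covered all 300. The regions at Capn13, Smim41 and Draxin cover the start itself, while that at Cistr covers 171 bases of the window and ends upstream of the start. The Draxin region also covered the whole window of Mad2l2, a gene of DNA repair that starts on the other strand. The Mad2l2 window (chr4:148130670-148130969) overlaps most of the Draxin window, so both count mostly the same bases. The GC content of the window was 78.0% for Draxin, 68.0% for Cistr, 58.0% for Smim41 and 49.0% for Capn13, and the median over all 11 windows was 52.0%, against 52.7% over 32851 windows in the table. The other windows belonged to Gm32768, Gm36056, Gm40226, Slc39a5 (a zinc transporter), Ucp3 (a mitochondrial carrier) and Wfdc18. No region at a promoter window was called in the Ibet only library, which called 9.51% of the whole set.

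Of 12 motifs searched on both strands, the GC box GGGCGG of Sp and Klf factors occurred in 4 of the 11 windows. Among all windows it occurred in 35.7%. The 4 were those of Draxin, Mad2l2, Cistr and Smim41, and those of Draxin and Mad2l2 are mostly the same DNA. The ETS core GGAAGT, the core of sites for PU.1 and its relatives, occurred in 3 of 11 (23.8% of all windows), the RUNX motif TGTGGT in 3 (16.8%) and the NFAT core TTTCCA in 3 (21.4%). The C/EBP motif TTGCNNAA, the NF-kB motif and the TATA box TATAAA occurred in 1 window each, against 10.8%, 20.7% and 13.6% of all windows. The letters of AP-1 (TGANTCA), CRE (TGACGTCA), the E-box (CACGTG), ISRE and NRF1 were in none of the 11, and in 7.81%, 1.79%, 7.15%, 3.44% and 4.60% of all windows in that order. Motifs that share letters were each counted, and the counts describe these 11 windows only. Whole windows were searched, so a motif can lie outside the called region. This held for the ETS cores of Capn13 and Gm36056 and the NFAT core of Smim41.

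The 883 regions were weakly called. Their median length was 347 bp (150 to 1051 bp), against 308 bp over all regions. In the 84 that Ibet only also called, the median summit pileup was 6 (4 to 10; mean 6.04 ± 1.09, SD over regions). In Untreated replicate 1 the median over all 883 was 10 (7 to 19; mean 9.96 ± 1.72), beside 11 for all peaks of that list. In Untreated replicate 2 it was 8 (6 to 16; mean 8.42 ± 1.43), beside 14 for all peaks. In the 43170 regions called in all 7 libraries the medians were 21 and 45 in Untreated replicates 1 and 2. The lowest pileup that reached a call was 7 in Untreated replicate 1 and 6 in Untreated replicate 2, so the regions lay close above it in both.

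**Figure D1:**
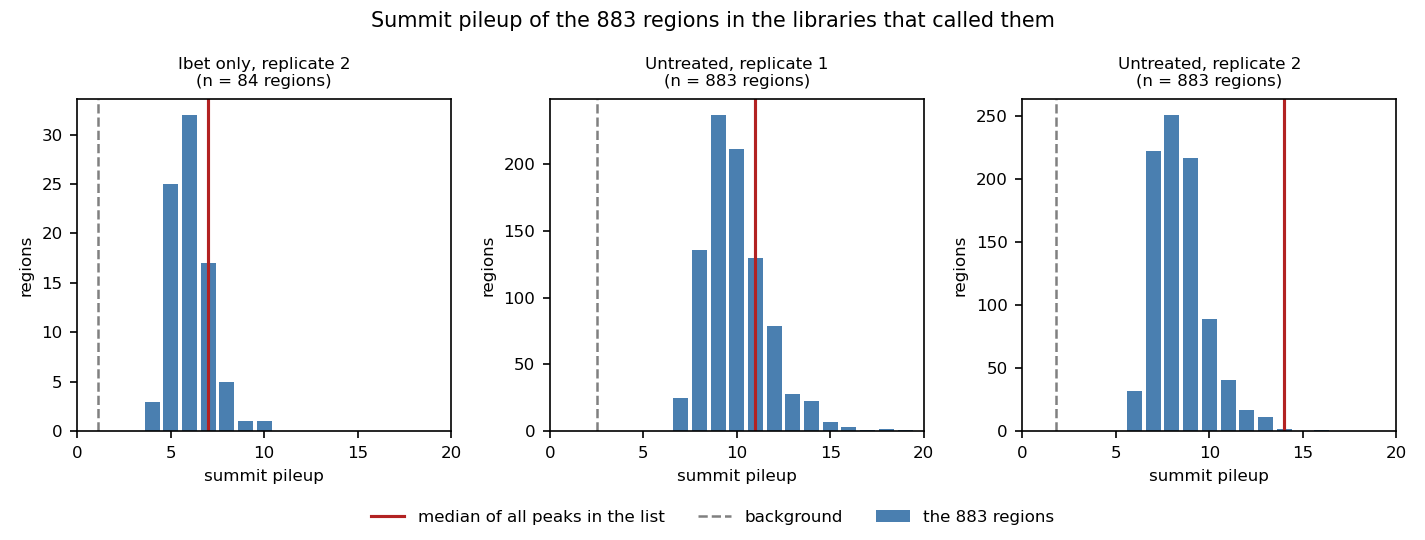
Summit pileup (x axis) of the 883 regions against the number of regions (y axis) in Ibet only replicate 2 (84 regions) and in both Untreated libraries; the red line is the median of all peaks in that library's list (7, 11 and 14) and the dashed line its background (1.11, 2.55 and 1.81). Nearly all bars in Untreated replicate 2 lie left of the red line.

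Ranked by the authors' -log10 p within each list, the regions had a median percentile of 40.8 in Untreated replicate 1 and of 11.0 in Untreated replicate 2. In the weaker part of both lists (under percentile 50) were 608 of 883 (68.9%), and 0 were in the stronger part of both. The single region above percentile 50 in Untreated replicate 2 lay nearest to Rbm38, an RNA-binding protein gene, with a pileup of 16 there (chosen after its values were seen). A -log10 q of at least 5 in both Untreated libraries was reached by 1 region, at chr1:17977832-17978147. At the lower edge, 25 regions stood at the lowest pileup of 7 in Untreated replicate 1 and 32 at the lowest pileup of 6 in Untreated replicate 2.

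Just outside the rule were 1030 regions called in both Untreated libraries and in exactly 1 of the 4 others. RANKL replicate 1 called 171 of these, RANKL replicate 2 called 107, RANKL+Ibet replicate 1 called 120 and RANKL+Ibet replicate 2 called 632. RANKL+Ibet replicate 2 is also the library with the highest background pileup, 13.8. The Untreated pileups of these regions resembled those of the set, with medians of 9 to 10 in replicate 1 and 8 to 9 in replicate 2. Of the 1030, 632 were kept out of the set by the call of RANKL+Ibet replicate 2 alone.

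The size of the set was close to that of the matching class for RANKL and below that for RANKL+Ibet. Against the 883 regions of the Untreated pair (0.256%), 1056 regions (0.307%) were called in both RANKL libraries and in no RANKL+Ibet or Untreated library, and 2678 (0.778%) in both RANKL+Ibet libraries and in no RANKL or Untreated library. Regions called in exactly 2 of the 6 libraries numbered 39280, of which the set was 2.25%. Pairs of different groups with the same replicate number shared 666 to 9360 such regions, and pairs that differed in group and number 407 to 5869. Of the other 14 pairs, 10 shared more regions than the Untreated pair did. Without Untreated replicate 1 the rule gave 10680 regions, without Untreated replicate 2 it gave 55495 and without RANKL+Ibet replicate 2 it gave 1515. The other libraries moved the number less, to between 990 and 1054.

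Merging only touching peaks fixed much of how the Untreated peaks lay within a region: the 799 regions without an Ibet only peak hold no other library's peak, so their Untreated peaks had to overlap or abut. The peaks of both overlapped directly in 872 of 883 regions (98.8%), which is therefore no sign of agreement between the libraries. Their strongest summits were a median of 100 bp apart (quartiles 46 and 168 bp), and within 150 bp in 610 regions (69.1%). In regions called in all 7 libraries the median distance was 59 bp, and in the 275 regions called in both Untreated and both RANKL+Ibet libraries but in no RANKL library it was 132 bp. In 878 regions (99.4%) each Untreated library had exactly 1 peak.

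More of the regions than not had a peak of RANKL-treated cells close by. The nearest region called in any RANKL or RANKL+Ibet library was a median of 771 bp away, and within 1 kb for 504 of 883 regions (57.1%, Clopper-Pearson 95% interval 53.7% to 60.4%). For the RANKL pair the matching share, with a region of a RANKL+Ibet or Untreated library within 1 kb, was 52.8% (49.8% to 55.9%), and for the RANKL+Ibet pair, with a region of a RANKL or Untreated library, 52.1% (50.2% to 54.0%). For 137 of the 883 regions (15.5%) the gap was at most 150 bp, the length of the shortest deposited peak. The other 379 regions (42.9%) had no such neighbour within 1 kb. These intervals and those that follow cover counting error only, since regions are not replicates.

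The I-BET library without RANKL was not used by the rule and asks whether these regions were called when the inhibitor acted alone. It called 84 of the 883 regions (9.51%, 7.66% to 11.6%), against 35.9% of all regions. All regions include the 43170 called in all 7 libraries and 33540 called by Ibet only alone. Neither kind could belong to the set, so the 2 shares are not alike. The share was 9.56% (7.86% to 11.5%) in the RANKL pair, 18.3% (16.8% to 19.8%) in the RANKL+Ibet pair and 16.2% (15.8% to 16.6%) in all regions called in exactly 2 of the 6 libraries. It was 26.3% (23.2% to 29.6%) among the 752 untreated-only regions with a call in 1 RANKL+Ibet library and 37.1% (31.4% to 43.1%) among the 275 with a call in both. Untreated-only means called in both Untreated libraries and in no RANKL library, which held for 1910 regions (0.555%). The classes differed in length, with medians of 347 bp in the set, 515.5 bp with 1 RANKL+Ibet call and 605 bp with both, and a longer region has more room for an Ibet only peak. The classes also differed in how many libraries called them, 2 of the 6 for the set and more for the other untreated-only classes. Median pileups in Untreated replicates 1 and 2 were 10 and 8 in the set and 10 and 10 in the 275. The parts of length, number of calls and pileup in these shares were not tested, and no other Ibet only library was analysed here.

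The share with an Ibet only call was 17.5% without RANKL+Ibet replicate 2, 5.86% without Untreated replicate 1 and 3.10% without Untreated replicate 2. It was 3.41% when a peak had to cover at least 50% of the region. The 84 regions were longer than the other 799, with medians of 449 and 339 bp, and their length includes the Ibet only peak. Their Untreated pileups had medians of 10 and 9 in replicates 1 and 2, against 10 and 8 in the other 799. The share inside genes was 66.7% of the 84 and 67.2% of the 799.

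**Figure D2:**
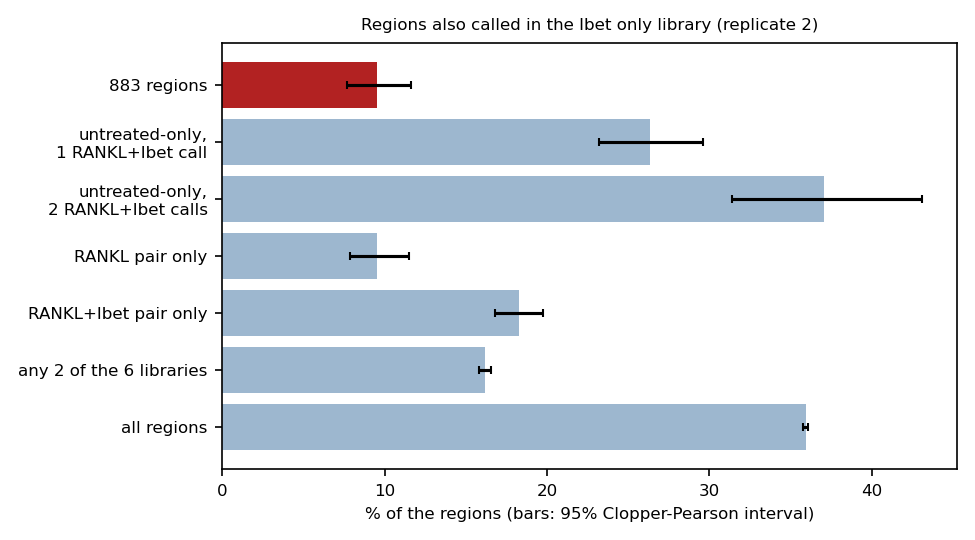
Share of regions called in the single Ibet only library (x axis, percent) for the 883 regions (red, 9.51%) and for 6 other classes of regions (blue), with 95% Clopper-Pearson intervals. The share of the 883 regions is close to that of the RANKL pair (9.56%) and below those of the other classes.

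By the Ibet only -log10 p, the regions with the strongest peaks there began with 1 at chr12:112518244-112518840, 7084 bp from Tmem179, a membrane protein gene, with pileups of 10 in Ibet only and of 8 and 14 in Untreated replicates 1 and 2. Next was chr3:19069818-19069983, 61419 bp from Armc1, with 9 in Ibet only and 13 and 12 in Untreated. A further 5 tied at a pileup of 8 in Ibet only, among them regions inside Rere, a nuclear corepressor gene, inside Lrch1, near Sh3bp1, and with no gene within 100 kb. That all 7 lacked a peak in the RANKL and RANKL+Ibet libraries was demanded by the rule.

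Ranked by the lower of their percentiles in the Untreated lists, the 12 highest regions lay in or near genes of several kinds, and 10 of them were absent from the Ibet only library. The first, chr9:45181818-45182855 inside Tmprss4, a membrane serine protease gene, had pileups of 11 and 14 in Untreated replicates 1 and 2. The region chr2:4493903-4494953 inside Frmd4a, a cell polarity scaffold gene, had 13 and 13, and chr5:123717101-123717737 inside Zcchc8, which serves nuclear RNA decay, had 14 and 13. Those at Jph2, a junctophilin gene of the muscle membrane junction, Pard6b, a polarity gene, and Magi3, a scaffold gene at cell junctions, had 12, 12 and 11 in replicate 1 and 13 each in replicate 2.

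The remaining 6 had a pileup of 12 in Untreated replicate 2. Among these was chr9:32711864-32712852 inside Ets1, a transcription factor gene of the ETS family, with 13 in replicate 1. Rftn1, a lipid raft protein gene, held chr17:50080153-50080408 with 14 in replicate 1. The region at chr1:17977832-17978147, with no protein-coding gene within 100 kb, had 5 in Ibet only and 16 in Untreated replicate 1, and the region near Armc1 was the other of the 12 with an Ibet only call. The last were near Rsl24d1, a ribosome biogenesis gene, and at chr9:43941821-43942596, with no gene within 100 kb. The highest pileups of the whole set, 19 in Untreated replicate 1 and 16 in Untreated replicate 2, were below the medians of 21 and 45 in regions called in all 7 libraries.

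The regions lay inside genes and at the 3′ ends of genes more often than all regions did, and at the 5′ ends less often. They overlapped a protein-coding gene body in 593 of 883 cases (67.2%, 63.9% to 70.3%), against 58.0% (55.0% to 61.0%) for the RANKL pair, 58.0% (56.1% to 59.9%) for the RANKL+Ibet pair and 57.9% for all regions. Within 1 kb of a gene's 3′ end were 54 of 870 (6.21%, 4.70% to 8.02%), against 3.63% (2.57% to 4.98%), 4.04% (3.31% to 4.86%) and 3.58% for the same classes. Within 1 kb of a 5′ end were 23 of 870 (2.64%, 1.68% to 3.94%), against 3.63% (2.57% to 4.98%), 2.92% (2.31% to 3.64%) and 4.43%. Regions called in exactly 2 of the 6 libraries stood at 59.0% inside genes, 4.10% at 3′ ends and 2.59% at 5′ ends, so the low 5′ share was not particular to the set. Nor was the share inside genes, which was 65.6% (62.0% to 69.0%) in untreated-only regions with a call in 1 RANKL+Ibet library and 66.5% in regions called in all 7 libraries, against 56.4% (50.3% to 62.3%) in untreated-only regions with calls in both RANKL+Ibet libraries. Either end taken without strand gave 97 of 883 (11.0%, 9.0% to 13.2%), against 9.01% of all regions. Of the genes on the covered chromosomes, 81.8% had a strand in the table.

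The untreated-only regions with RANKL+Ibet calls had 3′ shares of 5.98% and 6.34%, close to that of the set. Regions called in all 7 libraries had 5.64% (5.42% to 5.87%), so the 3′ share was not particular to the set either. Without Untreated replicate 2 the share inside genes was 56.9%, that at 3′ ends 2.77%, that at 5′ ends 1.74% and that at either end 5.32%, and without Untreated replicate 1 they were 64.5%, 4.68%, 2.61% and 8.52%. Promoter windows were overlapped by 1.15% of the set (0.553% to 2.10%), against 2.46% of the RANKL pair, 1.65% of the RANKL+Ibet pair, 4.13% of all regions and 22.9% of regions called in all 7 libraries, whose median length was 1312 bp. With a -log10 q of at least 2 asked of both Untreated peaks, which left 348 regions, the share at 5′ ends was 1.16%.

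**Figure D3:**
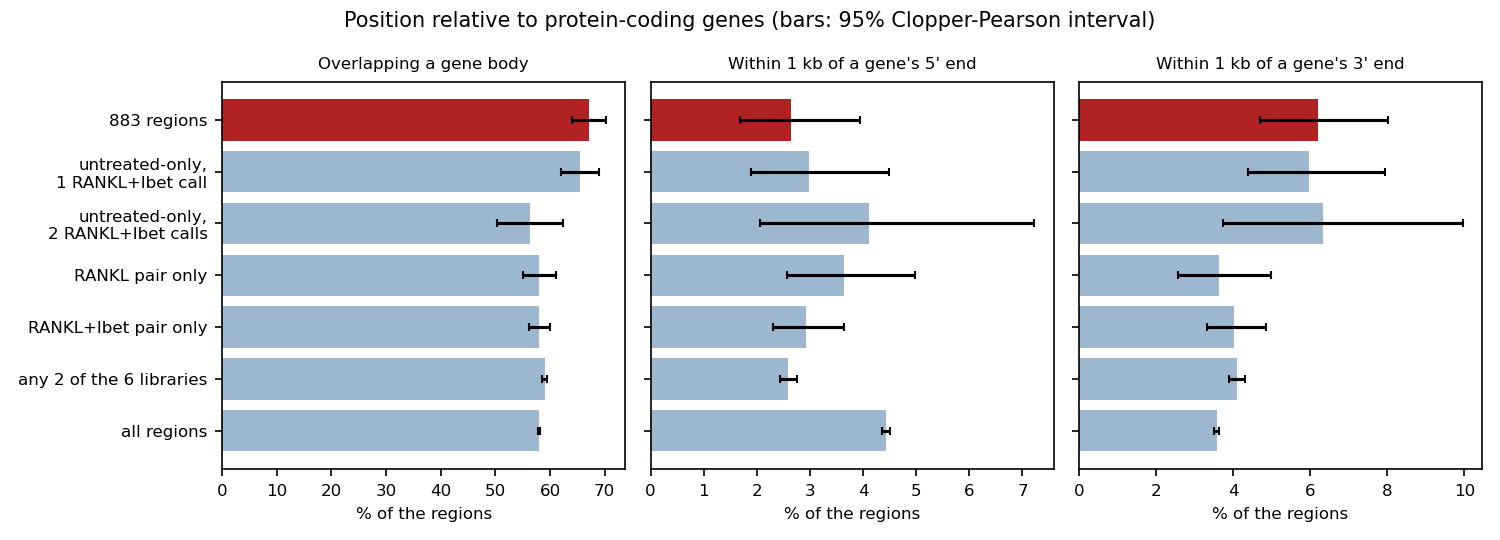
Share of regions (x axes, percent) that overlap a protein-coding gene body, lie within 1 kb of a gene's 5′ end or lie within 1 kb of a gene's 3′ end, for the 883 regions (red) and 6 other classes (blue), with 95% Clopper-Pearson intervals. The 883 regions stand at 67.2%, 2.64% and 6.21%, beside 57.9%, 4.43% and 3.58% of all regions.

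Chromosomes contributed unequally. Chromosome 5 gave 79 regions, 0.355% of its regions (0.281% to 0.442%), and chromosome 2 gave 89 (0.313%, 0.251% to 0.385%), while chromosome 13 gave 17 (0.124%, 0.0722% to 0.198%) and chromosome 18 gave 13 (0.129%, 0.0687% to 0.220%). Chromosome 1 gave 44 of its 26829 regions (0.164%, 0.119% to 0.220%). Chromosome X gave 0 of 883 (0% to 0.417%), against 0.946% of all regions. It gave 12 of 1056 (1.14%, 0.589% to 1.98%) for the RANKL pair and 13 of 2678 (0.485%, 0.259% to 0.829%) for the RANKL+Ibet pair. Other untreated-only regions were nearly absent from X too, with 0 of the 752 with a call in 1 RANKL+Ibet library and 1 of the 275 with a call in both. In the lists, 1.21% to 1.48% of the peaks of the RANKL, RANKL+Ibet and Ibet only libraries and 0.707% and 1.51% of those of Untreated replicates 1 and 2 were on X. Without Untreated replicate 1 the rule gave 114 regions on X, 1.07% of its 10680, and without Untreated replicate 2 it gave 78, 0.141% of its 55495.

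**Figure D4:**
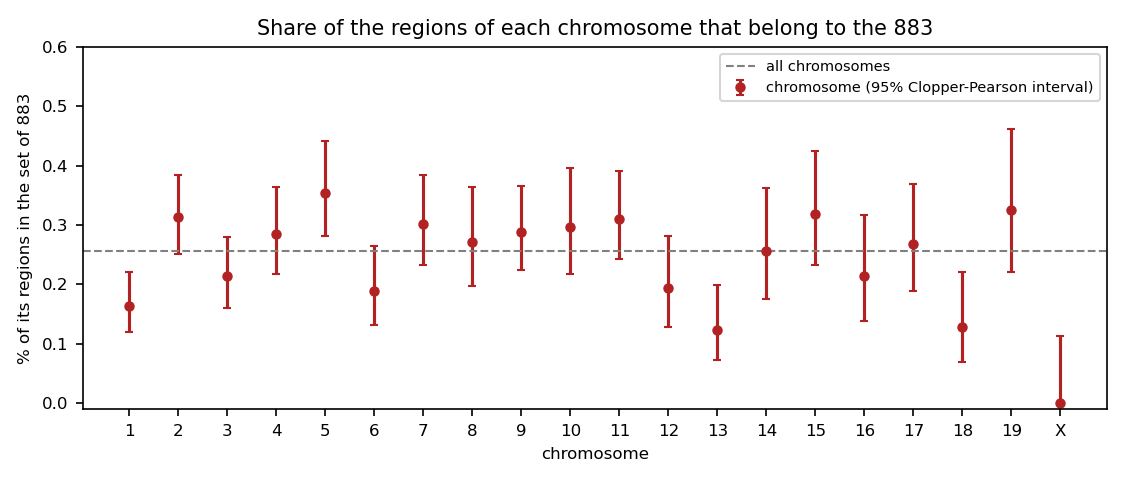
Percent of the regions of each chromosome (x axis) that belong to the 883 (y axis), with 95% Clopper-Pearson intervals; the dashed line is the genome-wide 0.256%, and chromosome Y, with 52 regions and 0 in the set, is not drawn. Chromosomes 1, 13, 18 and X have intervals below the line and chromosome 5 has one above it.

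A protein-coding gene lay within 100 kb of 852 of the 883 regions (96.5%). These regions belonged to 796 genes, of which 742 had 1 region, 52 had 2 and 2 had 3. The regions were spread out, with a median of 333784 bp to the next of the set, and 45 had another within 10 kb. Over the genes of all 17 lists, 40 of 11158 regions belonged to the set (0.358%), against 0.271% of all regions within 100 kb of a gene. The lists were drawn up with earlier results of these data known, so their counts describe and support nothing by themselves.

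Plekhm2, which encodes an adaptor that links lysosomes to kinesin for transport along microtubules, was one of the genes with 3 regions. They (chr4:141632345-141632673, chr4:141635704-141636099 and chr4:141642420-141642723) lay inside the gene, with pileups of 9, 10 and 9 in Untreated replicate 1 and 9, 10 and 7 in Untreated replicate 2. None was called in Ibet only, which called 9.51% of the whole set. Of 33 regions at the locus 6 were called in all 7 libraries.

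Genes of DNA methylation and histone modification had 13 regions at 10 of 36 members, 1.04% of the 1245 regions at these genes (0.557% to 1.78%), against 0.271% of all regions near genes. Of the 13, Ibet only called 4. Tet3, which encodes an enzyme that oxidises methylated cytosine, had 2. Of these, chr6:83361562-83362167 had a pileup of 7 in Ibet only and of 10 and 7 in Untreated replicates 1 and 2, and chr6:83368403-83368816 had 8 and 8 in Untreated with no Ibet only peak. Chd7, a chromatin remodeller gene, had 1 with 9 and 10 in Untreated, Hdac7, a histone deacetylase gene, had 1 with 9 and 9, and the corepressor gene Rere had 1 with 8 in Ibet only and 13 and 9 in Untreated. Beside the 13, the genes of this list held 6 regions of the RANKL pair. Of these, 3 were at Tet3, 2 at Rere and 0 at Chd7 or Hdac7.

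Dnmt3a and Rere had been seen among untreated-only genes before this list was drawn up, and without both the count was 11 of 1071 regions (1.03%). Only 2 of the 13, at Arid1a and Chd7, had no region of a RANKL or RANKL+Ibet library within 1 kb, which is 0.161% of the regions at these genes, against 0.115% for all genes under the same demand. Without Untreated replicate 1 the share at these genes was 5.38%, against 3.23% of all regions near genes, and without Untreated replicate 2 it was 13.9% against 15.9%. The share at these genes was thus above that near all genes with both Untreated libraries and below it without Untreated replicate 2. Dnmt3a and Arid1a are named here after their values were seen.

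Genes of actin and adhesion had 7 regions at 4 of 30 members (0.632%, 0.254% to 1.30%). The 0.271% of all regions near genes lay inside that interval. Ptk2b, which encodes the kinase Pyk2 of the osteoclast adhesion ring, had 2, at chr14:66216533-66216729 with pileups of 10 and 9 in Untreated replicates 1 and 2 and at chr14:66246587-66246871 with 9 and 9. Tns1, which encodes the focal adhesion protein tensin, had 2 of the 130 regions at its locus, and the actin cross-linker gene Actn4 had 2 of 34. Dock2, which encodes an activator of Rac in blood cells, had 1. None of the 7 was called in Ibet only, which called 9.51% of the whole set, so their lack of calls does not set them apart. Tns1 and Notch1 were known from earlier results of these data.

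Myeloid transcription factor genes had 6 regions at 6 of 33 members (0.370%, 0.136% to 0.804%), namely Ets1, Runx1, Rxra, Mef2a, Bach1 and Cebpe. Runx1, a regulator of blood cell development, had 1 in the set, at chr16:92790659-92791252 with 9 and 9 in Untreated, beside 6 regions called in the RANKL+Ibet pair only and 26 called in all 7 libraries. Cebpe, a factor of granulocyte maturation, had 1 at 152 bp from the gene (chr14:54709949-54710211), with 9 and 7 in Untreated, and is described here after its values were seen. Irf8, which restrains osteoclast formation, had 0 of 93, beside 0.271% of all regions near genes. Its 3 untreated-only regions therefore all had a RANKL+Ibet call, which follows from the rule and is no separate result. Macrophage identity genes as a list had 0 of 581 regions (0% to 0.633%). The intervals of both lists held the 0.271% of all regions near genes.

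Osteoclast genes had 2 of 881 regions (0.227%, 0.0275% to 0.818%), close to the background. Mmp9, the gelatinase that osteoclasts secrete, had 1 at chr2:164956367-164956682, 517 bp from the gene, with a pileup of 7 in Ibet only and 10 and 10 in Untreated. Itgav, an integrin chain gene, had 1 with 8 and 9 in Untreated. Nfatc1, the driver of osteoclast differentiation, had 0 of 76. AP-1 and early response genes had 1 of 671 (0.149%), 40219 bp from Jun (chr4:95092441-95092907), with 10 and 8 in Untreated, and Fos had 0 of 50. With 0.271% of all regions near genes in the set, 0 of 76 or 0 of 50 does not set a locus apart.

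NF-kB pathway genes had 2 of 639 regions (0.313%, 0.0379% to 1.13%), against 0.271% of all regions near genes. Traf3, which restrains the alternative NF-kB pathway, had 1 at chr12:111224808-111225183, with 10 and 10 in Untreated and 5653 bp from any region of a RANKL or RANKL+Ibet library, and the subunit gene Rela had 1 with 9 and 6. Notch1, a receptor gene, held both regions of the Notch list (2 of 933), at chr2:26467158-26467806 with 10 and 11 and at chr2:26490406-26490843 with 14 and 6. Interferon response genes had 1 of 374 (0.267%), near Oasl1, an antiviral gene, and inflammatory cytokine genes 0 of 386 (0% to 0.951%). The intervals of the NF-kB, Notch, interferon and cytokine lists all held 0.271%.

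Genes of BET proteins and elongation had 2 of 553 regions (0.362%, 0.0438% to 1.30%). Ep300, a histone acetyltransferase gene, had 1 of these with 8 and 9 in Untreated. Brd2 had 0 of 10. Genes of Myc and ribosome biogenesis had 2 of 513, at Cad, which serves pyrimidine synthesis, and at Pes1, which serves ribosome assembly, and Myc itself had 0 of 52. Oxidative phosphorylation genes had 1 of 375, near Nrf1, a regulator of mitochondrial genes. Of the gene lists for other cell types, that for granulocytes and erythroid cells had 1 of 153 regions (0.654%, 0.0165% to 3.59%). It lay at Slc4a1, an erythroid anion exchanger gene. The lists for B lymphocytes, T lymphocytes and fibroblasts with osteoblasts had 0 of 239, 0 of 451 and 0 of 435. The intervals of all these lists, from BET proteins on, held the 0.271% of all regions near genes, so none of the counts sets a list apart. Nor does 0 of 10 at Brd2 or 0 of 52 at Myc set a gene apart.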

How the data were processed

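The submitters' processing notes name mm10 and FastQC, cutadapt, Bowtie2, Picard, bedtools, SAMtools, MACS2; versions and settings are not given in the sources used here. The authors deposited 1 peak list per library. Its lines hold a position, a summit, the authors' score (the whole part of 10 times -log10 p in 100% of lines), a deposited fold (a ratio of pileup plus 1 to background plus 1) and the authors' -log10 p-value and -log10 q-value. These were used only within 1 list. Background and summit pileup were computed from the steps of the deposited folds (whole within 0.02 in 100% of lines).

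Peaks were merged in Python 3.11.15 (numpy 2.4.6, pandas 2.3.3), tested on simulated lists. Regions went to the nearest protein-coding gene (21896 in RefSeq, GRCm38.p6) within 100 kb, measured from the region's edge to the gene body, with strand from the RefSeq promoter table; exons and introns were not annotated. Shares have Clopper-Pearson 95% intervals (scipy 1.17.1). No test was made between groups.

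The set, gene lists and rules were chosen with earlier results of these data known. Named were the 12 regions highest in both Untreated lists, the 6 strongest in Ibet only (7 with ties), genes with at least 3 regions, up to 5 genes per list, and Nfatc1, Irf8, Fos, Myc and Brd2. Some genes that meet these rules are not reported here. Alternatives were stricter -log10 q limits (5, or 2 for Untreated peaks), equal lists, 50% coverage, direct overlap, autosomes, no Ibet only peak, 2 kb for gene ends and leaving out each library. Leaving out regions with a RANKL or RANKL+Ibet peak within 1 kb, and all alternatives for 5′ and 3′ ends, promoter windows, chromosome X and the chromatin gene list, were chosen after seeing the data.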

Additional observations from a re-analysis of the deposited data

How the results depend on the processing

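The number of regions was 883 and rested on weak calls. It was 5 with a -log10 q of at least 5 in all libraries, 348 with a -log10 q of at least 2 in the Untreated peaks and 379 without a RANKL or RANKL+Ibet peak within 1 kb, and it ran from 990 to 55495 when 1 library was left out. Under the other 5 alternatives (equal lists, 50% coverage, direct overlap, no Ibet only peak, autosomes) it stayed within 1.5 times 883; direct overlap also gave 883, of which 872 overlapped the set. The share called with Ibet only (9.51%) was 0% of the 5 regions, 12.4% with the -log10 q of at least 2, 3.41% with 50% coverage, and 3.10% to 17.5% when 1 library was left out. The share near gene ends (11.0%) was 0% of the 5 regions, 19.4% within 2 kb, 8.18% without a neighbour within 1 kb, and 5.32% to 11.2% when 1 library was left out. The share inside genes (67.2%) was 40.0% of the 5 regions, 62.9% with the -log10 q of at least 2, and 56.9% to 66.9% when 1 library was left out. The larger numbers without an Untreated library follow from asking for 1 library in place of 2. Without a RANKL or RANKL+Ibet library the number could only stay or rise, since a condition that keeps regions out is dropped. The cause of the other shifts was not tested. No paired analysis was possible because these results come from no test. With summit pileups of 6 to 19 in the Untreated libraries, a call turned on few tags.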

Other observations

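Of 1005 miRNA hairpins in the RefSeq table, 10 lay within 2000 bp of 9 of the 883 regions, and 0 overlapped one. The share of all regions near a hairpin was not counted, so whether 9 is many or few is not known. The nearest were Mir6396 at 119 bp and Mir219a-2 at 168 bp, the second with Mir219b on the same stretch of chromosome 2. The region beside Mir219a-2 (chr2:29845895-29846194) had a pileup of 8 in each Untreated library and no peak in Ibet only. The other 8 regions near hairpins had no Ibet only peak either, beside 9.51% of the whole set with one. Mir181d, of a family active in lymphocytes, was 1850 bp from a region with pileups of 12 and 8 in Untreated replicates 1 and 2. These genes were chosen after their values were seen.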
